A study of Homo sapiens with 8 samples.

Results

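A head-to-head gene pair is a gene on the minus strand and a gene on the plus strand whose 5′ ends lie close together and point away from each other, so that both start from one promoter region. The pairs were found from gene coordinates alone. In the annotation of the first WT library (hg19), a pair was taken where the start of a plus-strand gene lay 0 to 1000 bases beyond the end of a minus-strand gene on chromosomes 1 to 22, leaving out 92 histone symbols. This gave 864 pairs, made of 1714 of the 19414 coding genes in the files (8.83%), with 14 genes in 2 pairs each. Positions are listed for each library, and 702 of the pairs met the rule with those of all 8 libraries. The gap between partners ran from 7 to 1000 bases with a median of 218.5, and 579 pairs (67.0%) had a gap of at most 300 bases. Chromosomes 1, 2, 17 and 19 held the most, with 77, 75, 65 and 60 pairs. The widest gaps taken were 997 bases for PRADC1/CCT7, 999 for HNRNPA2B1/CBX3 and 1000 for ATP6V1G2/NFKBIL1, and the nearest pair left out was USH1G/OTOP2, with 1018. In every pair written here the minus-strand gene comes first.

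The measurements were made by TT-seq, which reads RNA made while the nucleoside 4-thiouridine (4-SU) is supplied. All 8 libraries came from U2OS, a human osteosarcoma cell line, with 2 libraries for each of 4 genotypes. The groups were Zab together with MYC overexpression (MYC_Zab), MYC overexpression (MYC), Zab alone, and WT. The construct behind Zab and the way in which MYC was overexpressed were not given in the labels, and neither was any control vector.

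Sharing a start region is common in mammalian genomes. Promoters of this kind are usually rich in CpG and poor in TATA boxes, and the transcribing polymerases leave in both directions from separate start sites. They are known for housekeeping genes, in particular those of DNA repair, ribosome assembly and mitochondria. Partners are often transcribed together, but each start site can also be regulated by itself.

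The labels and the data disagreed for the genes that the labels name. MYC was at 757 ± 14.8 CPM (reads divided by library size and scaled to a common total with TMM, a method that lines up the bulk of the genes) in the libraries labelled MYC_Zab, 6568 ± 8.29 in those labelled MYC, 981 ± 68.7 in Zab and 759.8 ± 17.5 in WT (mean ± SD, n = 2 each), so it was high in 1 of the 2 groups labelled as overexpressing it. ADAR, the RNA-editing enzyme that carries the Z-nucleic-acid-binding domains usually called Zαβ, was at 32109 ± 67.8 CPM in MYC_Zab, 453 ± 12.3 in MYC, 551 ± 33.4 in Zab and 33735 ± 31.7 in WT. It was thus high in the libraries labelled MYC_Zab and WT and low in those labelled MYC and Zab. All group names below are labels only, and every direction below is that of libraries so labelled. Libraries held 1839960 to 4072059 reads in coding exons, with 6.44 to 6.66 per 100 tags in Zab and 13.1 to 13.8 per 100 in the other groups. The spread between the 2 libraries of a group, as a chi-square per gene, was 1.99 to 2.06 in each group, where reads counted in twos would give 2 by counting alone. The labels do not call the replicates separate cultures, so each p-value sets a difference against the spread of these libraries alone, and that spread may be technical. In bulk RNA, fewer cells that express a gene and less RNA per cell cannot be told apart. Of the 10 mesenchymal and bone markers, 5 were above 1 CPM in every group and 1, SP7, had no read, while the 4 haematopoietic markers summed to at most 1.03 CPM in any library. The 5 epithelial markers, 2 of them above 1 CPM in every group, summed to 1257 to 1278 CPM in MYC_Zab, 864 to 901 in MYC, 2379 to 2512 in Zab and 1358 to 1393 in WT, and the 4 neural markers to 76.3 to 81.4, 59.8 to 60.3, 139 to 147 and 80.0 to 87.1 in the same order. Those of mesenchyme and bone summed to 2528 to 2621, 2048 to 2082, 3386 to 3524 and 2736 to 2870. Each of the 3 sums was highest in Zab and lowest in MYC, but most of each came from VIM, from KRT8 and KRT18, or from TUBB3. Those genes were highest in Zab, and other markers were not. RUNX2 (31.3 CPM in MYC and 3.46 in Zab), EPCAM (4.27 and 0) and RBFOX3 (7.42 and 4.91) were highest in MYC. COL1A1, CDH2 and SYP were highest in MYC_Zab. The sums therefore do not stand for every marker of a list, and the part of these markers in the results below was not tested.

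The stretches between the starts of 9 pairs are shown first, because they are the shared promoters of the pairs on which the results turn. They are 5′ to 3′ on the plus strand of GRCh38.p14 (RefSeq), so that the minus-strand gene starts just left of each stretch and the plus-strand gene just right of it. Capitals mark matches, on either strand, to one of 12 short motifs, which were chosen with sequences in view. The first 3 belong to pairs whose partners moved together, with a cAMP-response element (TGACGTCA) between DDX51 and NOC4L on chr12:132144320-132144456, GC boxes (GGGCGG) between SMC6 and GEN1 on chr2:17753811-17753868, and a CCAAT box and a GC box between OXLD1 and CCDC137 on chr17:81666606-81666736.
DDX51/NOC4L: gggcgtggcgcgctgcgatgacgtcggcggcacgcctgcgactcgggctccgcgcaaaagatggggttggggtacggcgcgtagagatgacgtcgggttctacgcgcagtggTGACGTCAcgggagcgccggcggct
SMC6/GEN1: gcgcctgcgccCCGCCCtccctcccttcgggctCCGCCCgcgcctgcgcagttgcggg
OXLD1/CCDC137: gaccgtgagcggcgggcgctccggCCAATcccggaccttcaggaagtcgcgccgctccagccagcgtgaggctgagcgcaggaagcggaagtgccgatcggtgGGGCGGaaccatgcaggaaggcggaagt

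The next 3 belong to pairs whose partners moved in opposite directions. The stretch of LMBRD2 and SKP2 on chr5:36151888-36152110 held a GC box and a CGCGCG run. That of PPP1R13L and CD3EAP (now POLR1G) on chr19:45406362-45406643 held a CCAAT box and the E-box CACGTG, which is the sequence that MYC with MAX is known to bind. The stretch of COPS2 and GALK2 on chr15:49155600-49155773 held a CCAAT box.
LMBRD2/SKP2: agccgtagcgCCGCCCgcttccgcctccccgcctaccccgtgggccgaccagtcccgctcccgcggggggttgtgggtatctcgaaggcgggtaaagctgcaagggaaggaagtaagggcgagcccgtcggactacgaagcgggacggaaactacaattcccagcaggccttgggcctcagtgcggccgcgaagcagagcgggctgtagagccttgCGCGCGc
PPP1R13L/CD3EAP: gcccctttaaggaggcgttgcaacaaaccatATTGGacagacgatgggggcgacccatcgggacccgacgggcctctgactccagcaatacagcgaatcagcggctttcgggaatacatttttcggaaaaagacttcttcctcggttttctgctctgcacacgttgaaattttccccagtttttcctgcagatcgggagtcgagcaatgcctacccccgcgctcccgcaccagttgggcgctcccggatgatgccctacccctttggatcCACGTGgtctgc
COPS2/GALK2: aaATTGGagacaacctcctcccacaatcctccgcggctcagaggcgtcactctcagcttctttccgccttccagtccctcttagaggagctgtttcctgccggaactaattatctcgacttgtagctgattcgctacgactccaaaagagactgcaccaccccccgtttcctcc

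The last 3 belong to pairs with a called change of the ratio between partners, which was smaller in HSPD1/HSPE1 than in the other 2. The stretch of ALG12 and CRELD2 on chr22:49918439-49918633 held 3 CCAAT boxes, 3 GC boxes, a CGCGCG run and an ER stress response element, which joins a CCAAT box to CCACG 9 bases further on and so overlaps one of the CCAAT boxes. That of TK1 and AFMID on chr17:78187205-78187361 held a TATA box (TATAAA) and 2 GC boxes, and that of HSPD1 and HSPE1 on chr2:197500275-197500378 an E-box and a GC box. For these last 2 pairs the starts of the current RefSeq genes differ from those in the files, where the gaps were 113 and 539 bases in hg19. A match is a description of letters, and binding was not measured.
ALG12/CRELD2: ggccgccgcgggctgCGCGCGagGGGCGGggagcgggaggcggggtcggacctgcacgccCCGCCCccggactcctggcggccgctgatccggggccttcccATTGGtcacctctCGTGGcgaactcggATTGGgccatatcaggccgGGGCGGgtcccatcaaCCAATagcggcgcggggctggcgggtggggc
TK1/AFMID: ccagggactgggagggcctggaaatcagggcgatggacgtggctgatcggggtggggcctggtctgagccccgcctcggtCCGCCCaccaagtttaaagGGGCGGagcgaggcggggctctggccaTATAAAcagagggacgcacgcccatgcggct
HSPD1/HSPE1: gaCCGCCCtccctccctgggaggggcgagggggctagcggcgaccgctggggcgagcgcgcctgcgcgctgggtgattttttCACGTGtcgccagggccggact

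The letters of member promoters were counted beside those of other genes. RefSeq windows of 300 bases (250 before to 50 after the start) were matched for 1469 member genes, and in 537 pairs the windows of both partners shared bases. Their median GC content was 64.7% against 62.7% in the other 13909 promoters, and the median ratio of observed to expected CpG was 0.879 against 0.753. The ETS motif CCGGAAGT stood in 17.0% of member windows and 5.23% of the others. AAGATGGCG, the motif of YY1, stood in 6.40% against 2.43%, and the palindromic NRF1 motif in 3.34% against 1.62%. TATAAA went the other way, with 3.20% of member windows and 9.92% of the others. More frequent in member windows were also GGGCGG (72.4% and 58.0%), CCAAT (40.2% and 35.7%), CACGTG (10.6% and 8.81%), TGACGTCA (4.42% and 2.38%) and the palindrome known from ZBTB33 sites (1.16% and 0.647%). Of the alternating runs, CGCGCG stood in 26.3% and 22.4%, and TGTGTGTG in 0.885% and 2.87%. The ER stress response element was found in 4 member windows (0.272%) and 15 others (0.108%). Partners whose windows overlap enter these shares with the same bases, so the shares carry no test.

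Most head-to-head genes had enough reads to be tested. Of the 1714 members, 1496 (87.3%) passed the filter on low reads, against 9999 of the 16717 other autosomal genes (59.8%), and 41 members had no read. Both partners passed in 678 pairs (78.5%), 1 partner in 152 and neither in 34. The same filter kept both genes of 362 of 771 divergent pairs with gaps over 1 kb and up to 10 kb (47.0%), of 242 of 443 same-strand neighbours (54.6%) and of 313 of 572 convergent neighbours (54.7%). All were taken on autosomes by their gap alone, whether or not another gene lay between. Per kilobase of exon, the median member had 11.5 CPM against 9.18 for the other tested autosomal genes. Within a pair the higher partner stood at a median of 2.71 times the lower per kilobase, and 232 pairs (34.2%) lay within 2-fold while 118 (17.4%) lay more than 10-fold apart. The levels of partners correlated weakly (Pearson r = 0.23 over 678 pairs), as a description across pairs that share libraries, depth and scaling. The same r was 0.05 for divergent pairs further apart, 0.002 for same-strand and 0.10 for convergent neighbours.

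In MYC over WT, partners moved in the same direction in 84 pairs and in opposite directions in 38, while in 297 pairs only 1 partner was called. Calls are from limma on log2(CPM + 1) at a Benjamini-Hochberg adjusted p under 0.05. Same-direction and opposite pairs numbered 43 and 30 among divergent pairs further apart, 31 and 35 among same-strand and 24 and 29 among convergent neighbours. Among the tested members, 314 genes were higher and 287 lower in the libraries labelled MYC (40.2%), read against 44.0% of all 11985 tested genes, 22.2% higher and 21.8% lower. Both partners were higher in 44 pairs and both lower in 40, and in 259 pairs neither was called. The changes of partners had r = 0.19 (Spearman rho = 0.22) over 678 pairs. The change of the ratio between partners, in which a factor per library cancels apart from the constant added before the logarithm, was called in 186 pairs (27.4%), against 34.6% of the 1595 neighbouring pairs of the 4 arrangements. These 186 held all 38 opposite pairs, 20 of the 84 same-direction pairs, 122 pairs with 1 partner called and 6 with neither. With the WT and MYC_Zab pairs of libraries taken as 1 sample each, 348 members, 37 same-direction pairs, 8 opposite pairs and 71 unequal ratios were called. Without MYC replicate 1, MYC replicate 2, WT replicate 1 or WT replicate 2 the opposite pairs numbered 17, 15, 19 and 18, and the same-direction pairs 55, 44 and 49 without MYC replicate 1, MYC replicate 2 and WT replicate 2. Unequal ratios numbered 122 and 119 without MYC replicate 1 and MYC replicate 2.

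**Figure D1:**
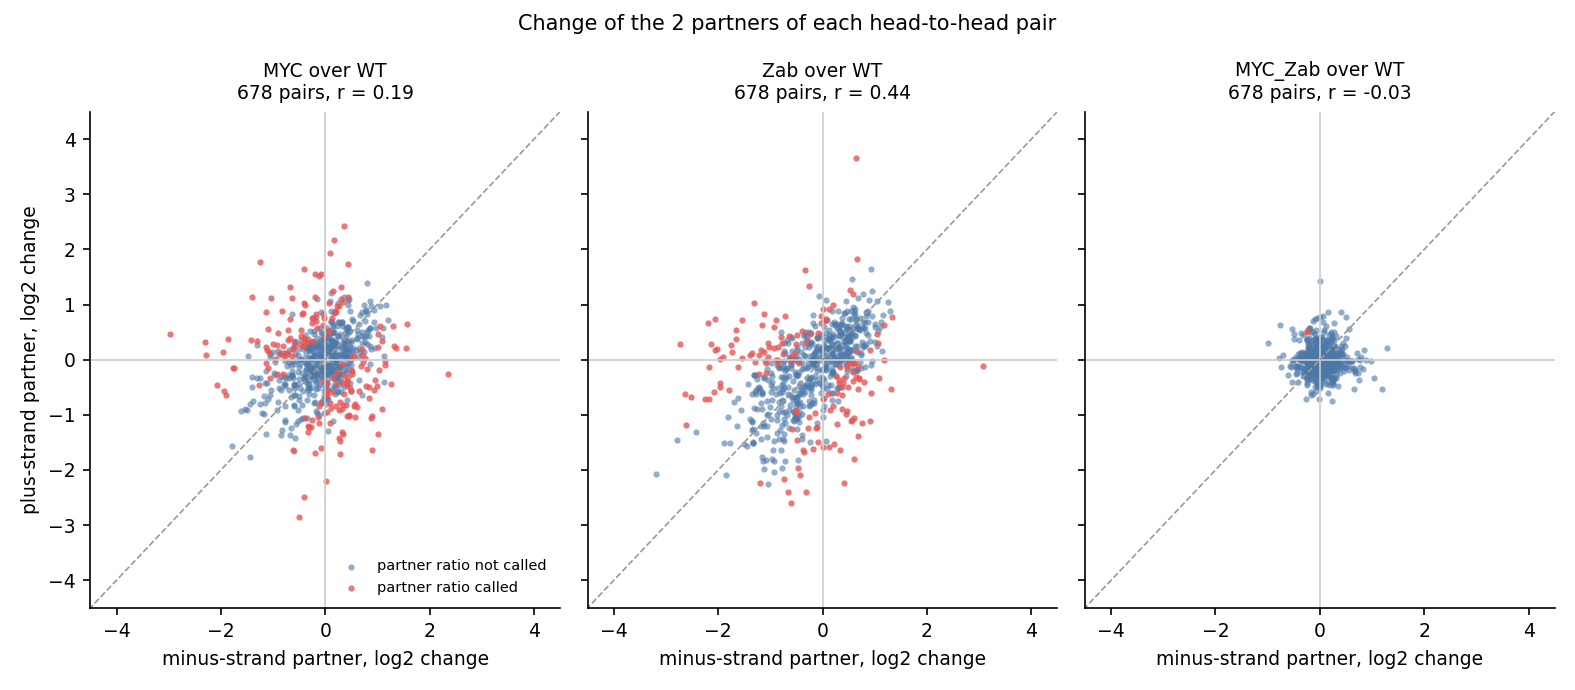
Changes of the 678 tested pairs in MYC over WT, Zab over WT and MYC_Zab over WT, with the log2 change of the minus-strand partner on the x axis and that of the plus-strand partner on the y axis; each point is a pair and red points are pairs whose partner ratio changed at an adjusted p under 0.05. The cloud leans along the diagonal most in Zab over WT (r = 0.44), less in MYC over WT (r = 0.19), and not in MYC_Zab over WT (r = -0.03).

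Scaling decides the direction of many of these calls. TMM scaling sets the median gene near 0, but the deposited values carry a factor for each library. The headers of the values hold the word spikein, but how the factor was set is not stated. On the deposited scale the median of all genes shifted by 0.47 in MYC over WT, by -0.63 in Zab over WT, by -0.19 in MYC_Zab over MYC, by 0.89 in MYC_Zab over Zab, by 0.27 in MYC_Zab over WT and by 1.11 in MYC over Zab (log2). With library totals the shifts were -0.06, -0.24, 0.12, 0.26, 0.04 and 0.19 in the same order. In MYC over WT the deposited scale called 743 members higher and 97 lower, with 188 pairs both higher and 3 both lower, and library totals 272 and 327. The share of all genes called on the deposited scale was not counted. Counts of members and lists on that scale, here and below, are therefore read only beside these shifts of the median gene. All changes below are relative to the median gene unless the deposited scale is named. The partner ratio is the same under each of these scalings up to the constant added before the logarithm.

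The 4 named pairs with both partners higher in MYC over WT, ranked by the smaller change of the 2 partners, included a pair of ribosome assembly factors. DDX51, a helicase of large ribosomal subunit maturation, had 86.8 and 77.5 CPM in the libraries labelled MYC, against 46.4 and 42 CPM in WT, a log2 change of 0.88 ± 0.15 (adjusted p = 2.4e-05). Its partner NOC4L, a nucleolar factor of the small subunit, had 89.6 and 108 CPM against 47.4 and 51.6 CPM in WT, a change of 0.98 ± 0.15 (adjusted p = 3.5e-06). Neither gene overlapped between the groups, and their ratio changed by 0.10 ± 0.22 (adjusted p = 0.76). Named pairs were ranked by their changes, so a lack of overlap here and below follows largely from the choice. In hg19 they start on chromosome 12 at 132628864 and 132629002. NUDT5, an ADP-sugar pyrophosphatase, had 129 and 122 CPM in MYC against 62.6 and 81.4 in WT (0.80 ± 0.14), and CDC123, an assembly factor of the initiation factor eIF2, 192 and 185 against 103 and 109 (0.83 ± 0.11). Their libraries did not overlap either, and the gap between them was 44 bases. KLHL18, a cullin-3 adaptor, had 189.6 and 209.9 CPM in MYC against 104 and 87.5 in WT (1.06 ± 0.11), with 20.6 and 32 against 14.8 and 12.8 for the kinesin KIF9 (0.85 ± 0.27 (adjusted p = 0.011)). CCDC58 had 67.7 and 67.9 CPM in MYC against 34.5 and 35.6 in WT, and the mitochondrial protein gene FAM162A 67 and 58.8 against 33.9 and 32.7. These 4 pairs kept their direction on the deposited scale. The median of all genes stood at 0.47 there, so pairs chosen as higher could hardly lose that direction.

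The 4 named pairs with both partners lower in MYC over WT ranged from transport and energy metabolism to ubiquinone synthesis. PHKB, the beta subunit of phosphorylase kinase, had 24.7 and 24.9 CPM in the libraries labelled MYC, against 66.8 and 62.9 in WT (-1.35 ± 0.17 (adjusted p = 2.4e-07)). ITFG1, on the other side of a 268-base gap, had 10.8 and 16.2 against 31.3 and 29.9 (-1.15 ± 0.24 (adjusted p = 3.4e-04)). Both genes span over 100 kb, and their groups did not overlap. NME7 fell to 23.2 and 18.9 CPM in MYC against 68.7 and 54.8 in WT (-1.51 ± 0.20), and the golgin BLZF1 to 12.9 and 15.7 against 26.8 and 28.8 (-0.92 ± 0.26). FAM161B changed by -1.44 ± 0.30 and COQ6, a monooxygenase of ubiquinone synthesis, by -0.81 ± 0.25. STPG1 changed by -1.26 ± 0.35 and NIPAL3 by -0.81 ± 0.28, with adjusted p of 0.0044 and 0.022. BLZF1, COQ6 and NIPAL3 kept the sign on the deposited scale but were not called there.

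The 4 named pairs with opposite changes in MYC over WT each set a gene of cell-cycle control, ribosome synthesis or DNA repair that rose beside a partner that fell. SKP2, the F-box protein that targets the cell-cycle inhibitor p27, had 183 and 172 CPM in the libraries labelled MYC, against 81.9 and 78.6 in WT (1.14 ± 0.14 (adjusted p = 1.1e-07)). LMBRD2, which starts 224 bases away, had 3.61 and 2.95 against 11 and 9.6 (-1.4 ± 0.37 (adjusted p = 0.0026)). The SKP2 over LMBRD2 ratio changed by 2.54 ± 0.36 (adjusted p = 2.7e-05), and neither gene overlapped between groups. Every opposite pair in MYC over WT and in Zab over WT had a called ratio. The ratio p-values of pairs chosen as opposite, here and below, therefore follow largely from the choice. CD3EAP, which encodes a subunit of RNA polymerase I, had 217 and 236 CPM in MYC against 99 and 108 in WT (1.12 ± 0.10 (adjusted p = 3.8e-10)), and PPP1R13L, an ankyrin-repeat and SH3-domain protein, 51.3 and 37.2 against 84.2 and 96.7 (-1.03 ± 0.14 (adjusted p = 6.0e-07)). Their ratio changed by 2.15 ± 0.19 (adjusted p = 5.9e-08). RRP9, of the U3 snoRNP, had 261 and 262 CPM in MYC against 124 and 119 in WT (1.1 ± 0.09) while PARP3, an ADP-ribosyltransferase, had 12.4 and 11.1 against 25.5 and 20.3 (-0.90 ± 0.27 (adjusted p = 0.0081)). XRCC3, of homologous recombination repair, had 46.4 and 47 against 26.8 and 19.2 CPM (1.01 ± 0.20) and ZFYVE21 4.38 and 7.63 against 13.9 and 19.2 (-1.35 ± 0.34 (adjusted p = 0.0018)). PARP3 was not called on the deposited scale.

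The 3 pairs with the largest change of the ratio in MYC over WT, among pairs with both partners at a mean of at least 5 CPM, were named after their values were seen. Their ratio p-values come after that choice and add no support. LPXN, a leukocyte paxillin homologue, had 3.09 and 1.23 CPM in the libraries labelled MYC, against 20.6 and 25.2 in WT. Its partner ZFP91, a zinc finger ubiquitin ligase, had 244 and 236 against 184 and 166, and the ratio of ZFP91 to LPXN changed by 3.44 ± 0.29 (adjusted p = 5.7e-08). FBXO2, an F-box protein that recognises glycans, had 0.773 and 0.492 CPM in MYC against 5.16 and 9.6 in WT, beside 25 and 22.4 against 21.6 and 16.4 for FBXO44, another F-box protein (2.63 ± 0.51 (adjusted p = 5.7e-04)). C4orf46 had 38.6 and 37.6 against 7.74 and 5.69 CPM, and the electron transfer enzyme gene ETFDH 3.61 and 5.41 against 9.03 and 3.2 (-2.61 ± 0.54 (adjusted p = 9.2e-04)). LPXN and FBXO2 changed by -2.98 and -2.31 and C4orf46 by 2.36, while the other partner changed by 0.46, 0.32 and -0.26.

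In Zab over WT partners moved in the same direction in 164 pairs and in opposite directions in 25. Both partners were higher in 63 pairs, both lower in 101, while 324 pairs had 1 partner called and 165 neither. Same-direction and opposite pairs numbered 78 and 10 among divergent pairs further apart, 59 and 12 among same-strand and 85 and 8 among convergent neighbours. Of pairs with both partners called, 86.8% of head-to-head pairs went the same way, beside 88.6%, 83.1% and 91.4% of these in turn. Whether these shares differ was not tested. Of the tested members 348 were higher and 430 lower in the libraries labelled Zab (52.0%), against 49.7% of all tested genes, 23.8% higher and 25.9% lower. Changes of partners had r = 0.44 (rho = 0.49) over 678 pairs. The ratio of partners changed in 149 pairs (22.0%), against 24.6% of the 1595 neighbouring pairs, and 142 of the 164 same-direction pairs had no called change of ratio. Limma on the deposited values had 41 members higher and 946 lower, with 2 pairs both higher and 318 both lower, while library totals gave 198 members higher and 582 lower, so the split of directions depends on the scaling. The opposite pairs then numbered 10 and 14. With the WT and MYC_Zab libraries as 1 sample each, 499 members, 81 same-direction pairs, 7 opposite pairs and 26 unequal ratios were called. Without WT replicate 1 there were 109 same-direction pairs, 15 opposite pairs and 87 unequal ratios, and without WT replicate 2 there were 12 opposite pairs and 88 unequal ratios.

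**Figure D2:**
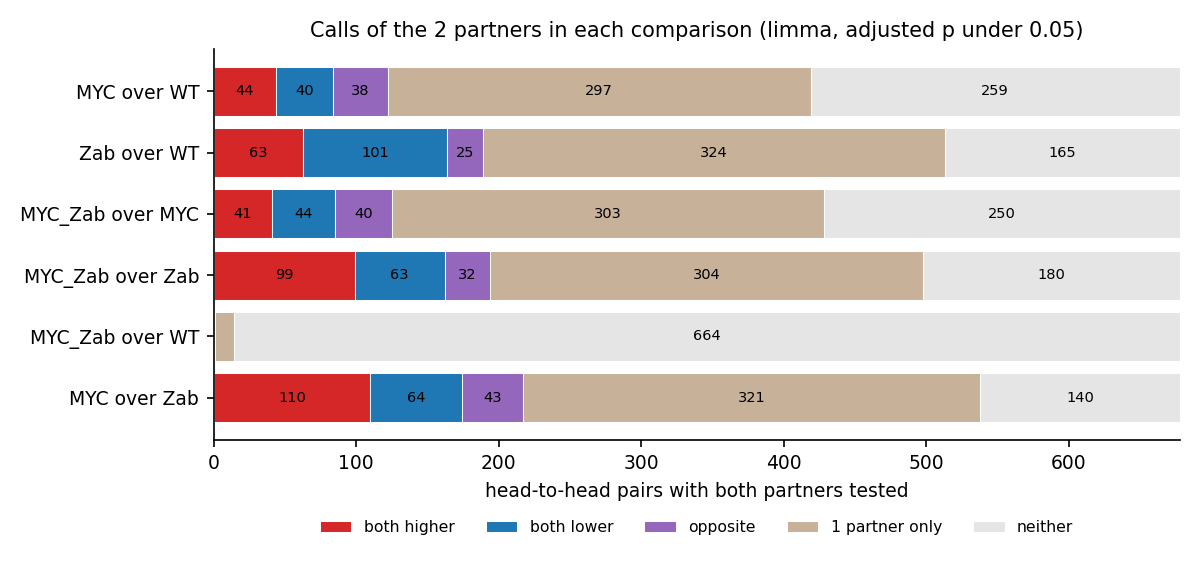
Number of the 678 tested pairs, per comparison, with both partners higher, both lower, opposite, 1 partner called or neither (stacked bars, limma adjusted p under 0.05). Same-direction pairs outnumber opposite pairs in the 5 comparisons other than MYC_Zab over WT, by the widest margin in Zab over WT (164 and 25), and MYC_Zab over WT has, with TMM scaling, 1 opposite pair and no same-direction pair.

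The 4 named pairs that were lower on both sides in Zab over WT were led by a pair of DNA repair genes. SMC6, of the SMC5/6 complex, had 3.6 and 2.12 CPM in the libraries labelled Zab, against 30.6 and 36.6 in WT (-3.19 ± 0.28 (adjusted p = 3.5e-10)). GEN1, a Holliday junction resolvase 59 bases away, had 2.4 and 3.72 against 15.2 and 16.4 (-2.06 ± 0.32 (adjusted p = 5.0e-06)). The Zab levels rest on 10 and 11 reads, and the partners' ratio was not called (1.12 ± 0.48 (adjusted p = 0.097)). CIP2A, an inhibitor of the phosphatase PP2A, had 17.4 and 14.9 CPM in Zab against 58.7 and 62.6 in WT (-1.85 ± 0.16), and the ubiquitin ligase DZIP3 5.99 and 9.56 against 31 and 41.2 (-2.1 ± 0.25). Their ratio changed by -0.25 ± 0.33 (adjusted p = 0.62). SREK1IP1 changed by -1.51 ± 0.29 and CWC27, a cyclophilin of the spliceosome, by -1.52 ± 0.19. IKZF5, of the Ikaros family, changed by -1.88 ± 0.36, and ACADSB, an acyl-CoA dehydrogenase, by -1.52 ± 0.61 (adjusted p = 0.039), with 4.19 and 0 CPM in Zab against 7.1 and 4.27 in WT. In these 8 genes both libraries of Zab lay below both of WT, with the narrowest margin in ACADSB. The genes were picked by the size of their fall, so this separation follows largely from the choice.

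The 4 named pairs that were higher on both sides in Zab over WT were of genes that span 3.41 to 28.1 kb. RPUSD1, of the pseudouridine synthase family, had 91.1 and 98.2 CPM in the libraries labelled Zab, against 52.3 and 45.2 in WT (0.95 ± 0.13 (adjusted p = 8.9e-07)). CHTF18, of the alternative clamp loader, had 66.5 and 101 against 34.2 and 33.8 (1.25 ± 0.18 (adjusted p = 2.1e-06)). NUBP2, which acts in cytosolic iron-sulphur cluster assembly, had 89.3 and 97.2 CPM in Zab against 43.2 and 44.4 in WT (1.07 ± 0.15), and its partner SPSB3 27 and 22.3 against 9.03 and 14.2 (1.05 ± 0.31). ARFRP1, a GTPase of the trans-Golgi, changed by 1.26 ± 0.23 and ZGPAT, a zinc finger repressor, by 1.04 ± 0.23. CENPX, a centromere and Fanconi pathway protein, changed by 0.93 ± 0.15, and LRRC45, of the centrosome linker, by 1.64 ± 0.37. All 8 stayed above WT on the deposited scale, where SPSB3, ZGPAT and CENPX were not called.

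The 4 named pairs with opposite calls in Zab over WT joined genes of unlike function. In all 4 pairs the transcripts counted differed between libraries, and in COPS2/GALK2, YOD1/PFKFB2 and OARD1/NFYA the rule was not met in all 8. COPS2, a subunit of the COP9 signalosome, had 12 and 14.3 CPM in the libraries labelled Zab, against 58.1 and 58 in WT (-2.06 ± 0.16 (adjusted p = 2.7e-11)). GALK2, of the galactokinase family, had 55.7 and 46.2 against 27.7 and 32.4 (0.74 ± 0.20 (adjusted p = 0.0029)). The ratio of GALK2 to COPS2 changed by 2.8 ± 0.28 (adjusted p = 1.2e-06), and no library of one group overlapped the other. PRR11 had 408 and 416 CPM in Zab against 232 and 232 in WT (0.83 ± 0.07), while SKA2, a kinetochore protein, had 18 and 20.2 against 43.2 and 41.6 (-1.11 ± 0.20). Their ratio changed by 1.94 ± 0.18 (adjusted p = 6.9e-07). YOD1, a deubiquitinase, changed by -1.54 ± 0.22 and PFKFB2, which sets fructose 2,6-bisphosphate, by 0.72 ± 0.24. OARD1, an ADP-ribose hydrolase, changed by -0.72 ± 0.28 (adjusted p = 0.035) and NFYA, a subunit of the CCAAT-binding factor NF-Y, by 0.78 ± 0.14 (adjusted p = 2.9e-05). GALK2, PFKFB2 and NFYA kept the sign on the deposited scale but were not called there.

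CRELD2 had the largest change of a partner in Zab over WT among the named pairs. CRELD2, an endoplasmic reticulum protein induced by ER stress, had 374 and 350.4 CPM in the libraries labelled Zab, against 29.7 and 26.3 in WT (3.65 ± 0.17 (adjusted p = 2.8e-16)), or 12.9-fold of mean CPM. Its partner ALG12, a mannosyltransferase of the same organelle, had 43.1 and 50.4 against 27.1 and 32 (0.65 ± 0.21 (adjusted p = 0.012)), and the ratio changed by 3.0 ± 0.29 (adjusted p = 6.9e-07). ALG12 was at 0.03 on the deposited scale (adjusted p = 0.92), so its call depends on the scaling. Other large ratio changes, named after their values were seen, were OSCAR/NDUFA3 at -3.2 ± 0.53 (adjusted p = 2.8e-04) and CEBPZ/NDUFAF7 at 2.86 ± 0.33 (adjusted p = 7.3e-06). OSCAR, an immune receptor of bone cells, had 33.6 and 22.3 CPM in Zab against 2.58 and 2.13 in WT, and NDUFA3, of respiratory complex I, 33.6 and 18.1 against 24.8 and 28.8. OSCAR had 0 and 0 CPM in MYC and 0.515 and 1.48 in MYC_Zab, so it reached the mean of 5 CPM through Zab alone. The p-values of its pair and of CEBPZ/NDUFAF7 come after a choice by these values and add no support. CEBPZ, a ribosome assembly factor, had 15.6 and 16.5 CPM in Zab against 78.1 and 75.7 in WT, and NDUFAF7, a methyltransferase for complex I, 27.6 and 26 against 24.5 and 11.

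**Figure D3:**
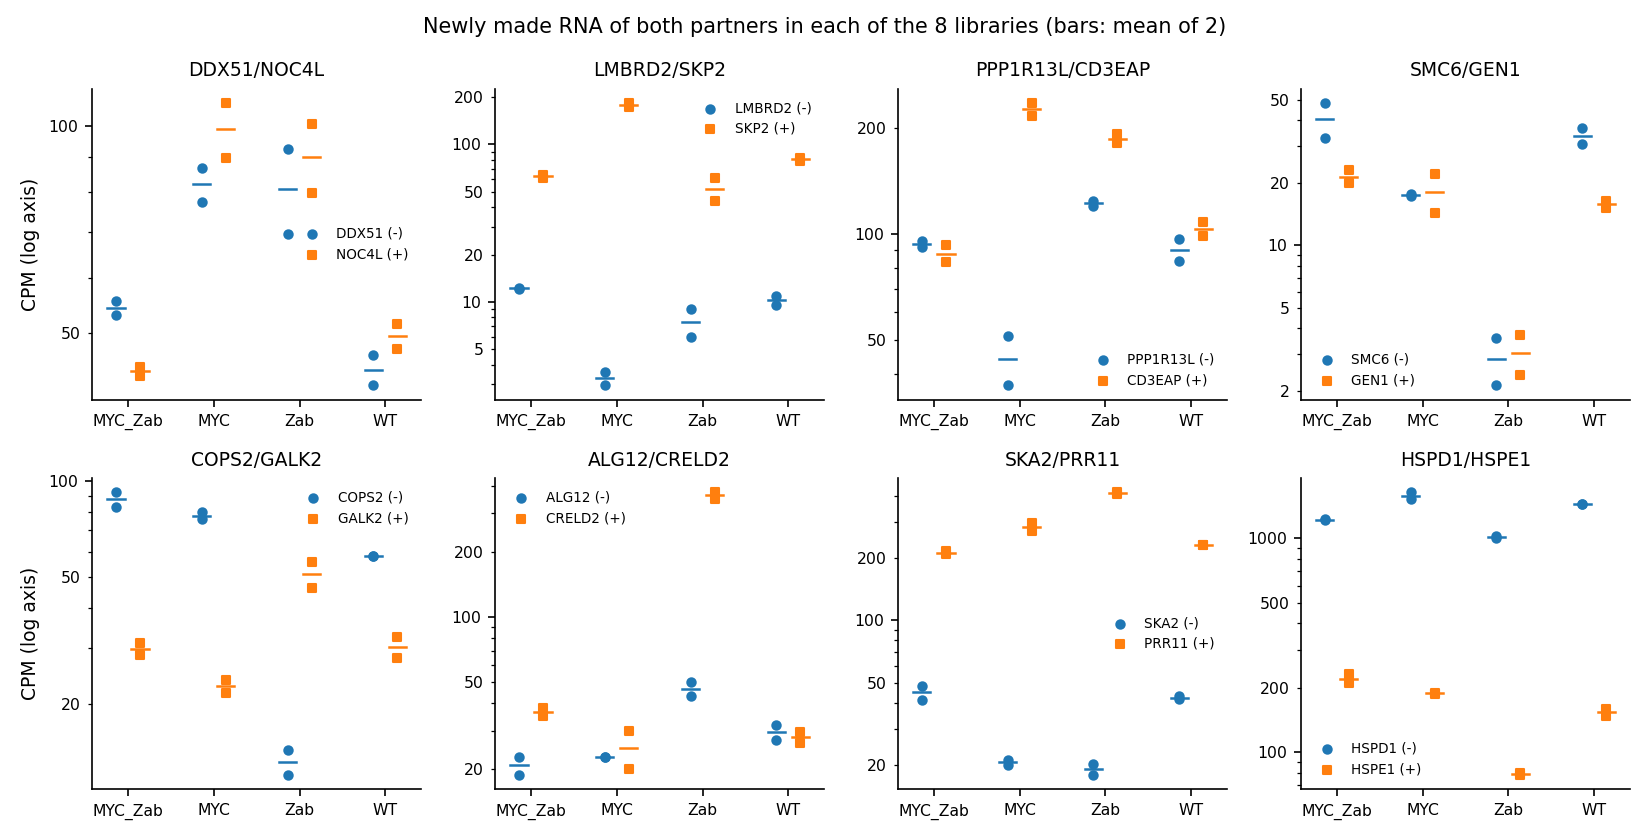
CPM on a log axis in each library of 8 named pairs, with the minus-strand and plus-strand partner side by side and the groups in the order MYC_Zab, MYC, Zab and WT; points are libraries and bars the mean of 2. SKP2 rises above its WT level where LMBRD2 falls in the libraries labelled MYC, SMC6 and GEN1 are both lowest in Zab, and CRELD2 reaches 374 and 350.4 CPM in Zab, against 29.7 and 26.3 in WT.

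Of 20 long-known divergent pairs on a list, 18 met the rule, and 16 of these are described. PPAT and PAICS, enzymes of purine synthesis, were both called higher in MYC over WT (1.02 ± 0.13 and 0.46 ± 0.06) and both lower in Zab over WT (-0.75 ± 0.13 and -0.51 ± 0.06). The ratio of PAICS to PPAT changed in MYC over WT by -0.56 ± 0.15 (adjusted p = 0.0061), and in Zab over WT it had 0.24 ± 0.15 (adjusted p = 0.26). GART, also of purine synthesis, and SON, a splicing cofactor, were both higher in MYC over WT (0.44 ± 0.09 and 0.59 ± 0.07), and in Zab over WT GART changed by -0.07 ± 0.09 (adjusted p = 0.53) and SON by -0.41 ± 0.07 (adjusted p = 2.0e-05). NPAT, a coactivator of histone genes, had 11.4 and 8.49 CPM in the libraries labelled Zab against 36.8 and 37.7 in WT, and ATM, the DNA damage kinase, 33 and 32.9 against 76.8 and 61.5. Both fell in Zab over WT (-1.82 ± 0.23 and -1.04 ± 0.15) and, less, in MYC over WT (-0.60 ± 0.23 and -0.51 ± 0.15). SARS2 and MRPS12, of mitochondrial translation, were both higher in both comparisons, with 0.61 ± 0.24 and 0.53 ± 0.15 in MYC over WT and 0.84 ± 0.24 and 0.48 ± 0.15 in Zab over WT. On the deposited scale MRPS12 was at -0.15 and SARS2 was not called in Zab over WT, and NPAT and ATM were not called in MYC over WT there. TAP1 and PSMB9, which serve antigen presentation, were both lower in MYC over WT (-0.78 ± 0.16 and -1.09 ± 0.42), and neither was called on the deposited scale.

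MCM4, a subunit of the replicative helicase, had 458 and 442 CPM in the libraries labelled MYC, against 242 and 246 in WT (0.88 ± 0.08), and PRKDC, a kinase of end joining, 839 and 859 against 732 and 761 (0.18 ± 0.05), with a ratio change of 0.70 ± 0.11 (adjusted p = 1.2e-04). CBX3, the heterochromatin protein HP1 gamma, had 71.9 and 54.2 CPM in Zab against 146 and 152 in WT (-1.24 ± 0.11), and HNRNPA2B1, an RNA-binding protein, 863 and 890.3 against 952 and 971 (-0.13 ± 0.04). Their ratio changed by -1.11 ± 0.13 (adjusted p = 1.1e-05). TK1, thymidine kinase, had 204 and 211 CPM in Zab against 85.8 and 80.0 in WT (1.31 ± 0.11), and AFMID, kynurenine formamidase, 7.79 and 19.1 against 21.9 and 15.3 (-0.54 ± 0.29 (adjusted p = 0.13)). COL4A2 and COL4A1, the chains of type IV collagen, changed by 0.64 ± 0.08 (adjusted p = 5.3e-07) and 0.23 ± 0.14 (adjusted p = 0.16) in Zab over WT, and by -0.10 and 0.03 in MYC over WT, where neither was called. These 2 genes were on the deposited scale at 0.00 and -0.39 in Zab over WT, and at 0.39 and 0.52 in MYC over WT. RECQL, a helicase, fell in MYC over WT (-1.13 ± 0.23) beside -0.06 ± 0.25 (adjusted p = 0.87) for the Golgi protein gene GOLT1B. AURKA, a mitotic kinase, changed by 0.48 ± 0.09 in MYC over WT and 0.29 ± 0.09 in Zab over WT (-0.35 on the deposited scale), beside 0.02 and 0.00 for CSTF1, of mRNA 3′ end cleavage, which was not called. SURF2 and SURF1 changed by 0.47 ± 0.18 (adjusted p = 0.039) and 0.10 ± 0.25 (adjusted p = 0.78) in MYC over WT. PSMD13 and SIRT3 changed by 0.59 ± 0.11 and 1.0 ± 0.35 in Zab over WT, where on the deposited scale PSMD13 was at -0.05 and SIRT3 was not called. TRMT2A and RANBP1 were both higher in MYC over WT (0.80 ± 0.18 and 0.51 ± 0.06), and in Zab over WT they changed by 0.33 ± 0.18 (adjusted p = 0.12) and 0.21 ± 0.06 (adjusted p = 0.0059), with RANBP1 at -0.43 on the deposited scale. BRCA2 had 7.19 and 6.37 CPM in Zab against 31 and 27.4 in WT (-1.95 ± 0.23), and ZAR1L, its partner, had 2 reads in Zab and none in the other groups.

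With TMM scaling, few head-to-head genes differed between the libraries labelled MYC_Zab and WT. In MYC_Zab over WT, 4 members were higher and 11 lower (1.0%), against 0.601% of all genes, 0.134% higher and 0.467% lower. On the deposited scale, where the median of all genes shifted by 0.27, limma called 194 members higher and none lower, 12 pairs were higher on both sides and none was opposite, so the calls of single genes depend on the scaling. With library totals 4 members were higher and 3 lower. Relative to the median gene, no pair had both partners called in the same direction by limma, edgeR or DESeq2. At an unadjusted p under 0.05 limma had 122 members, 4 same-direction pairs and 3 opposite pairs. The single opposite pair was HSPD1/HSPE1, which encodes the mitochondrial chaperonin Hsp60 and its co-chaperonin Hsp10. HSPE1 had 209.8 and 231 CPM in the libraries labelled MYC_Zab, against 160.0 and 148 in WT (0.52 ± 0.09 (adjusted p = 0.0033)). HSPD1 had 1212 and 1233 against 1449.6 and 1444 (-0.24 ± 0.04 (adjusted p = 5.3e-04)), and its sign turned on the deposited scale (0.04). Their ratio, with 0.76 ± 0.11 (adjusted p = 0.0024), was 1 of 2 unequal ratios (0.295% of 678 pairs, against 0.125% of the 1595 neighbouring pairs). The other was HSPD1 with HSPE1-MOB4, a readthrough gene that starts where HSPE1 does and shares its exons. HSPD1 and HSPE1 both have processed pseudogenes, so reads could be split between copies. In Zab over WT both fell, HSPD1 by -0.51 ± 0.04 (limma adjusted p = 1.3e-11) and HSPE1 further, with a ratio change of -0.43 ± 0.11 (adjusted p = 0.0088). On the deposited scale HSPD1 and HSPE1 were at -1.15 and -1.57 in Zab over WT. With the WT and MYC_Zab libraries as 1 sample each no member was called, and edgeR called 28.

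MYC_Zab over MYC shares the libraries labelled MYC with MYC over WT, so values of both stand side by side without a test of their likeness. In MYC_Zab over MYC 287 members were higher and 319 lower (40.5%), against 44.5% of all genes, 21.9% higher and 22.6% lower. Both partners were higher in 41 pairs, both lower in 44 and opposite in 40, with r = 0.17, and 196 ratios changed (28.9%, against 35.5% of neighbouring pairs). Deposited values gave 176 members higher and 490 lower, with 16 pairs both higher, 103 both lower and 35 opposite, while library totals gave 352 members higher and 266 lower. NME7 had 64.9 and 54.5 CPM in MYC_Zab against 23.2 and 18.9 in MYC (1.46 ± 0.20), and BLZF1 33.5 and 35 against 12.9 and 15.7 (1.21 ± 0.26). FAM161B and COQ6 were both higher as well (1.2 ± 0.30 and 1.17 ± 0.25). OXLD1, a mitochondrial protein gene, had 27.8 and 25.7 CPM in MYC_Zab against 46.4 and 50.2 in MYC (-0.83 ± 0.19), and CCDC137 100.3 and 103 against 181 and 189 (-0.86 ± 0.10). NUDT5 and CDC123 were both lower (-0.88 ± 0.14 and -0.91 ± 0.11). LMBRD2 and SKP2 moved in opposite directions (1.63 ± 0.37 and -1.49 ± 0.14), as did PPP1R13L and CD3EAP (1.09 ± 0.14 and -1.35 ± 0.10). With the WT and MYC_Zab libraries as 1 sample each, 364 members, 30 same-direction pairs, 10 opposite pairs and 76 unequal ratios were called. Without MYC replicate 1, MYC replicate 2, MYC_Zab replicate 1 or MYC_Zab replicate 2 the same-direction pairs numbered 47, 43, 44 and 45 and the opposite pairs 22, 17, 19 and 17, and without either MYC_Zab library the unequal ratios numbered 116 and 126.

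MYC_Zab over Zab shares the libraries labelled Zab with Zab over WT, so pairs named in both are no separate observation. In MYC_Zab over Zab 421 members were higher and 341 lower (50.9%), against 49.9% of all genes, 25.8% higher and 24.1% lower. Both partners were higher in 99 pairs, both lower in 63 and opposite in 32, with r = 0.42, and 172 ratios changed (25.4%, against 25.9% of neighbouring pairs). With the deposited values 1186 members were higher and 12 lower, with 465 pairs both higher, none both lower and 6 opposite, while library totals gave 576 members higher and 197 lower. SMC6 had 48.2 and 32.8 CPM in MYC_Zab against 3.6 and 2.12 in Zab (3.43 ± 0.28), and GEN1 19.8 and 23 against 2.4 and 3.72 (2.48 ± 0.32). CIP2A and DZIP3 were also both higher (2.28 ± 0.16 and 2.29 ± 0.25). CRELD2 had 35.1 and 38 CPM in MYC_Zab against 374 and 350.4 in Zab (-3.28 ± 0.17), and ALG12 was lower too (-1.14 ± 0.21), as were SPSB3 and NUBP2 (-1.01 ± 0.31 and -1.04 ± 0.15). TK1 fell (-1.4 ± 0.11) while AFMID rose (0.93 ± 0.29), and PRR11 fell (-0.95 ± 0.07) while SKA2 rose (1.19 ± 0.20). ALG12, SPSB3, NUBP2 and PRR11 were not called on the deposited scale. With the WT and MYC_Zab libraries as 1 sample each, 499 members, 72 same-direction pairs, 11 opposite pairs and 30 unequal ratios were called. Without MYC_Zab replicate 1 or MYC_Zab replicate 2 there were 97 and 102 same-direction pairs, 13 and 15 opposite pairs and 82 and 86 unequal ratios.

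MYC over Zab held the most calls. It shares its libraries with the comparisons above, so a pair named again is no separate observation. Members were higher in 476 cases and lower in 357 (55.7%), against 56.3% of all genes, 29.6% higher and 26.7% lower. Both partners were higher in 110 pairs, both lower in 64 and opposite in 43, with r = 0.34, and 250 ratios changed (36.9%, against 39.1% of neighbouring pairs). The deposited scale had 1212 members higher and 20 lower, with 466 pairs both higher, none both lower and 11 opposite, while library totals gave 581 members higher and 283 lower. DIS3, a nuclease of the exosome, had 80.6 and 55.9 CPM in the libraries labelled MYC, against 15.6 and 22.3 in Zab (1.79 ± 0.21), and PIBF1, of centriolar satellites, 9.53 and 7.14 against 0 and 2.12 (2.39 ± 0.48, on 4 reads in Zab). SMC6 and GEN1 were both higher (2.29 ± 0.28 and 2.22 ± 0.32). DRAP1, a subunit of the repressor NC2, had 198 and 187 CPM in MYC against 493 and 534 in Zab (-1.41 ± 0.07), and C11orf68 41.2 and 37.9 against 106 and 101 (-1.37 ± 0.14). TRPT1, a tRNA phosphotransferase, and NUDT22, a hydrolase of UDP-sugars, were both lower (-1.72 ± 0.35 and -1.46 ± 0.23). DNAJB9, a co-chaperone of the endoplasmic reticulum, fell to 11.8 and 10.8 CPM in MYC, against 31.2 and 37.7 in Zab (-1.52 ± 0.24), while its partner THAP5 had 32.7 and 31.2 against 9.59 and 12.2 (1.48 ± 0.24). MMUT, methylmalonyl-CoA mutase, fell (-1.21 ± 0.24) while CENPQ, of the kinetochore, rose (1.59 ± 0.33). NUDT22, C11orf68, DNAJB9 and MMUT were not called on the deposited scale. Without MYC replicate 1 or MYC replicate 2 there were 104 and 116 same-direction pairs, 23 and 22 opposite pairs and, without the first, 166 unequal ratios.

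Over all 4 groups, the level of both partners varied in 355 pairs, of 1 partner in 258 and of neither in 65 (limma F test, adjusted p under 0.05, called in 71.4% of all genes). The ratio of partners varied in 324 pairs (47.8%), against 52.1% of the 1595 neighbouring pairs. In 152 of the 355 pairs the ratio was not called. Partners had their highest mean in the same group in 276 pairs (40.7%) and their lowest in the same group in 292 (43.1%). Both were highest in MYC_Zab in 35 pairs, in MYC in 94, in Zab in 110 and in WT in 37. Same-highest shares were 38.1% of divergent pairs further apart, 45.9% of same-strand and 41.9% of convergent neighbours, and same-lowest shares 37.6%, 35.1% and 36.1%. Whether any of these shares differs between arrangements was not tested.

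**Figure D4:**
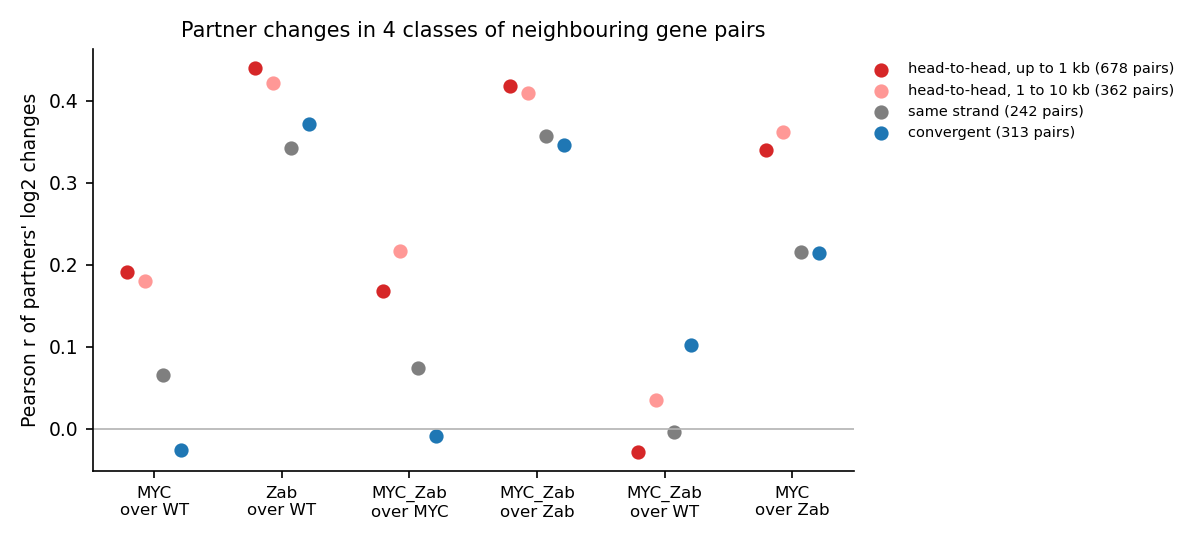
Pearson correlation between the log2 changes of 2 neighbouring genes, for head-to-head pairs (678), divergent pairs over 1 and up to 10 kb apart (362), same-strand neighbours (242) and convergent neighbours (313), in each of the 6 comparisons. Head-to-head pairs have r = 0.19 in MYC over WT and 0.44 in Zab over WT, divergent pairs further apart 0.18 and 0.42.

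Partners were set beside other neighbouring genes. In MYC over WT r was 0.18 for divergent pairs further apart, 0.07 for same-strand and -0.03 for convergent neighbours. In Zab over WT these were 0.42, 0.34 and 0.37, beside 0.44 for head-to-head pairs. All 4 arrangements share libraries, depth and scaling, and no r was tested against another. In Zab over WT, 331 of 975 tested genes of the divergent pairs further apart were higher (33.9%) and 146 lower (15.0%). Of 599 genes of same-strand neighbours 250 (41.7%) and 61 (10.2%) were, and of 830 of convergent neighbours 317 (38.2%) and 130 (15.7%). Head-to-head members were higher in 348 of 1496 cases (23.3%) and lower in 430 (28.7%), beside 23.8% and 25.9% of all genes. A gene can stand in more than 1 arrangement, and the split of directions depends on the scaling. Distance within the head-to-head pairs did not order the correlation in Zab over WT, with r of 0.37, 0.43, 0.41, 0.56 and 0.47 in gaps of at most 100, 200, 300, 500 and 1000 bases (155, 161, 144, 111 and 107 pairs). In MYC over WT the values were 0.25, 0.23, 0.19, 0.09 and 0.18. Unequal ratios in MYC over Zab made up 31.6%, 39.8%, 27.1%, 42.3% and 47.7% of the pairs in the same bins, and in Zab over WT 18.7%, 27.3%, 19.4%, 19.8% and 24.3%.

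Gene span moved with the change in Zab over WT, in members and in other genes. The median change of members was 0.36 at spans of at most 5 kb (173 genes), 0.04 at 5 to 20 kb (518), -0.22 at 20 to 50 kb (454), -0.43 at 50 to 100 kb (219) and -0.45 above 100 kb (132). Other autosomal genes had 0.36, 0.17, -0.06, -0.23 and -0.32. In MYC over WT the medians of members were 0.07, 0.03, 0.03, -0.04 and -0.27. Within pairs the order did not hold: among 202 pairs whose spans differed at least 4-fold, the shorter partner had the higher change in 91 in Zab over WT and in 103 in MYC over WT. The part of length in the pair results was not tested. The transcript counted for a gene was chosen in each library, and 850 members had the same one in all 8. Among the named pairs, NME7/BLZF1, STPG1/NIPAL3, FAM161B/COQ6, PPP1R13L/CD3EAP and SPSB3/NUBP2 did not meet the rule in all 8 libraries. Nor did ARFRP1/ZGPAT, COPS2/GALK2, YOD1/PFKFB2, OARD1/NFYA and SARS2/MRPS12. Only DDX51/NOC4L, KIF9/KLHL18, NUDT5/CDC123, LMBRD2/SKP2, CIP2A/DZIP3, OXLD1/CCDC137, HSPD1/HSPE1, MMUT/CENPQ, COL4A1/COL4A2, TAP1/PSMB9, RECQL/GOLT1B and ZAR1L/BRCA2 had the same transcripts of both partners in all 8. Changes of every other named pair, including those that met the rule in all 8, can set unlike transcripts side by side, which was not tested. In the 181 tested pairs with the same transcripts throughout, r was 0.20 in MYC over WT and 0.54 in Zab over WT, beside 0.19 and 0.40 in the other 497.

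**Figure D5:**
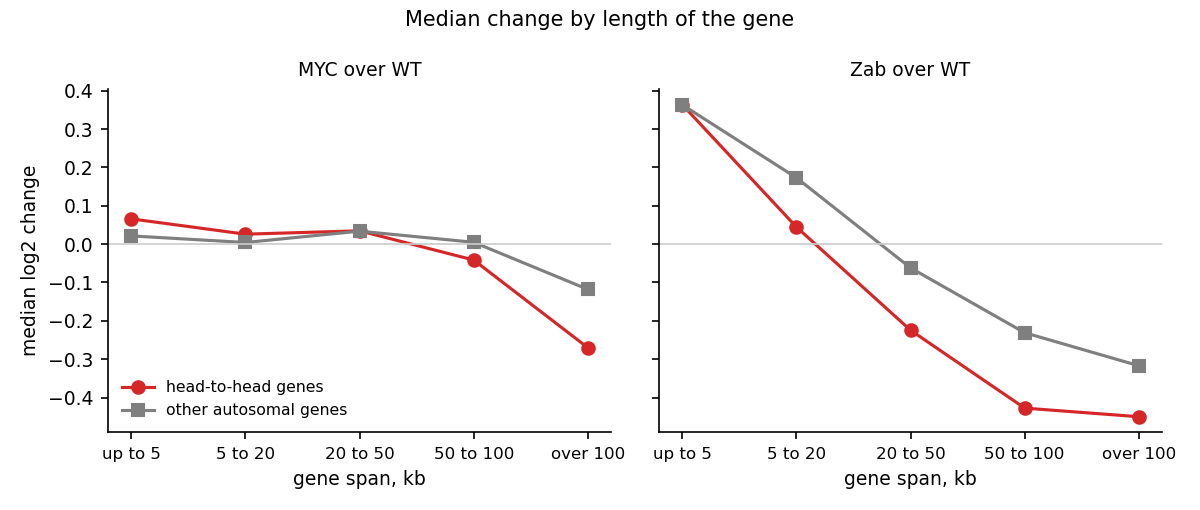
Median log2 change against gene span in 5 bins, for head-to-head members and for other autosomal genes, in MYC over WT and in Zab over WT. In Zab over WT the members' median falls with length, with 0.36 at up to 5 kb and -0.45 above 100 kb, and the other genes' median with 0.36 and -0.32.

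Gene lists set together with earlier results of these data in view place the partners by function. Canonical MYC targets among the members were higher in MYC over WT in 16 of 19 cases and lower in none (median 0.46, and 19 and 0 on the deposited scale), beside 46 higher and 1 lower of 53 such genes elsewhere. Their 15 tested partners were higher in 8 cases and lower in 3 (median 0.22). Ribosome assembly genes were higher in 26 of 42 cases and lower in 1 (median 0.38, and 40 and 1 on the deposited scale). Their partners in 35 pairs, in which UTP4 stands with 2 partners, were higher in 9 cases and lower in 10 (median -0.11), though on the deposited scale they were higher in 17 and lower in 3 (median 0.38). Both were higher in 8 of these pairs and opposite in 6. The list pairs named here and for repair genes were picked after their values were seen. BOP1, of large subunit assembly, and HSF1, the heat shock factor, were both higher (1.05 ± 0.07 and 0.60 ± 0.07), and so were NIP7 and COG8 (0.88 ± 0.12 and 0.47 ± 0.15). UTP15, of the small subunit processome, rose by 0.87 ± 0.16 while ANKRA2 was at -1.14 ± 0.35, and NOP9 stood at 0.38 ± 0.11 beside -1.87 ± 0.54 for DHRS1. TSR3 had 0.57 ± 0.14 beside -1.04 ± 0.30 for GNPTG.

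Members of DNA repair and replication were higher in 13 and lower in 6 of 38 cases in MYC over WT (median 0.08), and their partners in 33 pairs were higher in 2 and lower in 11 (median -0.35), with 5 opposite pairs. On the deposited scale the members were higher in 24 and lower in 2 (median 0.57), and those partners higher in 10 and lower in 1 (median 0.14). CHEK2, a checkpoint kinase, had 0.56 ± 0.22 and HSCB, of iron-sulphur cluster assembly, -0.81 ± 0.32. NTHL1, a base excision glycosylase, had 0.93 ± 0.28 and TSC2, of the tuberous sclerosis complex, -0.55 ± 0.15. XPC, of nucleotide excision repair, and LSM3, of the spliceosome, had -1.27 ± 0.12 and -0.45 ± 0.14. In Zab over WT the repair members were higher in 13 and lower in 16 (median -0.28), beside 23.8% and 25.9% of all genes, and 8 pairs had both partners lower, 3 both higher and none was opposite. For these members the deposited scale gave 2 higher and 29 lower, and library totals 6 and 21. Mitochondrial ribosomal proteins were higher in 12 of 25 cases and lower in 1 in MYC over WT, oxidative phosphorylation subunits in 5 and 4 of 23, chaperones in 8 and 4 of 18 and zinc finger genes in 6 and 2 of 27. These 4 lists had, on the deposited scale, 20 higher and 0 lower, 14 and 1, 14 and 0, and 15 and 2. Proteasome subunits were higher in none of 9 and lower in 4, but on the deposited scale in 7 and none. Over all tested genes 22.2% were higher and 21.8% lower, and the median lies near 0 by the scaling. On the deposited scale the median of all genes stood at 0.47 in MYC over WT, so counts there lean to higher in any list.

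Promoter E-boxes were set beside the direction of change in MYC over WT. Members with CACGTG in the 300-base window were higher in 44 and lower in 18 of 139 cases (median 0.14), and those without it in 215 and 239 of 1151 (median -0.05). Other genes with CACGTG were higher in 261 and lower in 146 of 892 (median 0.13), and those without it in 1671 and 1752 of 7755 (median -0.02). These are counts only, and partners whose windows overlap share the motif. Where 1 partner of a pair passed the filter, it was higher in 32 and lower in 33 of 152 cases in MYC over WT, and in 42 and 41 in Zab over WT. These are 21.1% and 21.7% in MYC over WT, beside 22.2% and 21.8% of all genes, and 27.6% and 27.0% in Zab over WT, beside 23.8% and 25.9%. The untested partners of these pairs had at most 52 reads in all 8 libraries together, and 17 of them none.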

How the data were processed

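TT-seq libraries of U2OS cells, 2 in each of 4 labelled groups, were used as deposited by the authors. Per the submitters' processing notes, the builds hg19 and dm6 and the tools STAR, Trim Galore 0.6.6, bedtools 2.29.2 and SAMtools 1.11 were used, with no roles stated. Reads over coding exons were counted with HOMER on the opposite strand, with 1 transcript per symbol chosen in each library, per the file headers. The deposited values are a signal, namely reads multiplied by a number that differs between libraries and whose derivation is not stated. The headers of the values hold the word spikein, and dm6 is among the builds, but nothing given ties either to that number. Dividing by the step between low values recovered whole reads for 99.96% to 99.99% of values (within 0.02 reads), and 77.2% to 82.7% of values from 1 to 20 reads were even.

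Values were scaled with TMM (edgeR 4.0.16), filtered with filterByExpr at 10 reads (11985 genes kept), and tested on log2(CPM + 1) with limma 3.58.1 (R 4.3.3) in a fit of all 8 libraries with 4 residual degrees of freedom and Benjamini-Hochberg adjustment. Changes are on that scale, which understates low genes, and are given ± SE. The change of the partner ratio (plus-strand over minus-strand gene) was fitted alike over 1595 neighbouring pairs of 4 arrangements. An exact permutation of 2 libraries against 2 cannot give a two-sided p below 0.333. Alternatives were other pseudocounts, filters and scalings, the deposited scale, edgeR's quasi-likelihood test and DESeq2 1.42.0 on recovered reads, a replicate block, libraries left out, and the WT and MYC_Zab libraries taken as 1 sample each.

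The members and lists were chosen with earlier results of these data known. Pairs named in the text, 47 with 94 genes, had both partners at a mean of at least 5 CPM and the largest smaller change among both higher, both lower and opposite calls (4 of each in MYC over WT and Zab over WT, 2 of each elsewhere where there were as many). The long-known pairs were added whatever their level, except for 2 that are not reported here. Pairs named outside this rule are marked in the text. Promoter windows are RefSeq's on GRCh38.p14, matched by current or earlier symbol for 15504 genes. Positions of genes are those of the files, in hg19. No other genome was used here.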

Additional observations from a re-analysis of the deposited data

Results flagged for a closer look

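The change of the partner ratio (plus-strand over minus-strand gene) was compared between MYC_Zab over MYC and Zab over WT by testing the first minus the second in limma, with adjustment over 1595 neighbouring pairs. The difference was called in 222 of 678 head-to-head pairs (32.7%), against 36.8% of the 1595 neighbouring pairs, and in 19 of the 46 named pairs with a tested ratio. Named pairs other than the long-known ones were chosen by the size of changes in comparisons of these same libraries. Their count, differences and p-values below follow partly from that choice and add no support. Each term has an ADAR-high group on one side and an ADAR-low group on the other, MYC_Zab over MYC with the high one on top and Zab over WT with the low one, so what the difference means for Zab cannot be told apart from the labels' conflict.

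Among pairs with a lower difference, SKA2/PRR11 stood at -3.44 (adjusted p = 1.12e-08), YOD1/PFKFB2 at -3.16 (adjusted p = 7.28e-05), LMBRD2/SKP2 at -2.92 (adjusted p = 0.000193) and PPP1R13L/CD3EAP at -2.85 (adjusted p = 2.03e-07). OARD1/NFYA stood at -2.72 (adjusted p = 8.83e-05), COPS2/GALK2 at -2.60 (adjusted p = 4.74e-05) and ALG12/CRELD2 at -2.32 (adjusted p = 0.000178). TRPT1/NUDT22 had -2.04 (adjusted p = 0.0189), SMC6/GEN1 -2.01 (adjusted p = 0.0255), RECQL/GOLT1B -1.34 (adjusted p = 0.0388), PRKDC/MCM4 -1.22 (adjusted p = 1.09e-05) and C11orf68/DRAP1 -0.68 (adjusted p = 0.0218). In SMC6/GEN1, TRPT1/NUDT22, C11orf68/DRAP1 and AURKA/CSTF1 the ratio was called in neither of the 2 comparisons, so these 4 pairs pass in the difference alone.

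Among pairs with a higher difference, XRCC3/ZFYVE21 stood at 3.46 (adjusted p = 0.000161), RRP9/PARP3 at 3.41 (adjusted p = 5.13e-07) and HNRNPA2B1/CBX3 at 1.96 (adjusted p = 2.6e-07). TK1/AFMID had 1.69 (adjusted p = 0.00423), RPUSD1/CHTF18 1.03 (adjusted p = 0.0186), HSPD1/HSPE1 1.03 (adjusted p = 4.95e-05) and AURKA/CSTF1 0.68 (adjusted p = 0.0394). For genes taken singly, the difference was called in 814 of 1496 tested members (54.4%), against 53.1% of all 11985 tested genes.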

How the results depend on the processing

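The partner ratio of the named pairs kept its direction and its side of the threshold in 643 cases over the settings without a left-out library, with 12 calls lost and 2 gained. Their genes' changes kept both in 1516 cases, with 88 calls lost, 15 gained and 8 turned. The turned values were all on the deposited scale: in Zab over WT COL4A1 -0.39, MRPS12 -0.15, AURKA -0.35, CSTF1 -0.62, PSMD13 -0.0452 and RANBP1 -0.43, in MYC over WT COL4A2 0.39, and in MYC_Zab over WT HSPD1 0.035. The cause was not tested, beyond the factor per library that this scale keeps.

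The deposited scale gave 191 same-direction pairs in MYC over WT; 320 same-direction and 10 opposite pairs in Zab over WT; 1198 members, 465 same-direction and 6 opposite pairs in MYC_Zab over Zab; 194 members, 12 same-direction and 0 opposite pairs in MYC_Zab over WT; and 466 same-direction and 11 opposite pairs in MYC over Zab. Library totals gave 14 opposite pairs in Zab over WT and 7 members in MYC_Zab over WT. DESeq2 gave 11 opposite pairs in Zab over WT, 104 same-direction and 18 opposite pairs in MYC_Zab over Zab, 0 opposite pairs in MYC_Zab over WT and 23 in MYC over Zab. In MYC_Zab over WT edgeR gave 28 members and 2 opposite pairs, no filter gave 1 member and 0 opposite pairs, and a mean of at least 5 CPM turned r to 0.0179, which lies near 0 in each setting.

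With the WT and MYC_Zab libraries taken as 1 sample each, fewer were called: in MYC over WT 348 members, 37 same-direction and 8 opposite pairs and 71 unequal ratios; in Zab over WT 499, 81, 7 and 26; in MYC_Zab over MYC 364, 30, 10 and 76; in MYC_Zab over Zab 499, 72, 11 and 30; in MYC_Zab over WT 0 members, 0 opposite pairs and 0 unequal ratios; and in MYC over Zab 27 opposite pairs. Without readthrough pairs, an alternative chosen after seeing the data, MYC_Zab over WT had 1 unequal ratio.

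Leaving out 1 library gave, for members called, 424 to 682 in MYC over WT, 609 to 757 in Zab over WT, 429 to 702 in MYC_Zab over MYC, 579 to 752 in MYC_Zab over Zab, 1 to 30 in MYC_Zab over WT and 645 to 828 in MYC over Zab. Same-direction pairs ranged over 44 to 106, 109 to 159, 43 to 105, 97 to 156, 0 to 0 and 104 to 172 in the same order, opposite pairs over 15 to 51, 12 to 26, 17 to 57, 13 to 31, 0 to 2 and 22 to 44, and unequal ratios over 119 to 230, 87 to 155, 116 to 249, 82 to 166, 0 to 2 and 166 to 252. In MYC_Zab over WT members numbered 30 without Zab replicate 1 or Zab replicate 2 and 1 without MYC_Zab replicate 2, and r was 0.0163 without MYC_Zab replicate 1, 0.0004 without WT replicate 1 and between -0.0675 and -0.0187 without any other single library. The lone library of a group is there assumed to vary like the other groups.

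With the replicate number as a block, members called were 604, 782, 602, 762, 16 and 829, same-direction pairs 84, 164, 86, 163, 0 and 171, opposite pairs 39, 27, 41, 32, 1 and 43, and unequal ratios 172, 137, 188, 163, 2 and 248. Deviations of same-numbered libraries correlated at -0.026 to 0.0099. The spread within groups was near that of counting alone, which could hold this correlation near 0 either way. It therefore cannot show whether the numbers pair the libraries. Depth limits the low partners: 1839960 to 2097530 reads in Zab leave genes under about 10 reads there with wide errors, as SE values show.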
